A study of Mus musculus with 4 samples.

Results

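Myelin genes were followed in sorted cells of PDGF-B-driven mouse gliomas through 9 members: Mbp, Mobp, Mog, Mag, Cnp, Cldn11, Opalin and Ugt8a, which encode proteins or enzymes of myelin, and Myrf, the transcription factor that switches them on. A member was measured by the array probe sets annotated with that gene symbol alone. All 9 were found, each with 1 probe set, among 19937 genes. The tumours were induced in C57/Bl6 mice by a retrovirus, injected into embryos at embryonic day 14, that makes PDGF-B and EGFP from one transcript, and EGFP-positive cells were sorted from the dissociated tumours. The late-onset group, labelled high-grade, held 2 samples of 1 tumour each, here called tumour 1 and tumour 2. The early-onset group, labelled low-grade, held 2 samples, each a pool of cells from 2 tumours, here called pool 1 and pool 2. Both groups carried the PDGF-B and EGFP virus, tumours were taken when symptoms began, and no tumour-free brain or untransduced cells were compared here. The comparison asks how the cells of late-onset high-grade tumours differ from those of early-onset low-grade tumours.

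Oligodendrocytes arise from progenitors that divide in response to PDGF, and they wrap axons in layers of membrane once they mature. Maturation begins under the lineage factors Olig2 and Sox10. Sox10 turns on Myrf, a membrane-bound protein that cuts itself, enters the nucleus and, together with Sox10, drives the myelin genes. The products then act in different places: some compact the cytoplasmic face of the membrane, some seal the layers, some lie at the surfaces of the sheath, and some make its lipids.

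The 4 arrays gave log2 probe set values. Over all probe sets the tumours correlated at r = 0.988 and the pools at r = 0.992, against 0.972 to 0.974 for a tumour with a pool. The lineage markers of the sorted cells were bright on all arrays: Sox10 stood at 11.52 and 11.49 in the tumours and at 11.51 and 11.50 in the pools, and Olig2 at 11.93 and 11.89 in the tumours and at 12.09 and 12.12 in the pools. Values in bulk samples cannot tell fewer cells of a type from less RNA per cell. Replicates are biological by their labels, and p-values measure the spread between these 4 samples only.

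Of the 9 genes, 2 rose and 2 fell in late-onset cells, and 5 were not called. Cldn11 and Myrf rose, while Mbp and Mobp fell, at an adjusted p under 0.05 from limma with Benjamini-Hochberg adjustment over all 19937 genes. Across all genes 6.59% rose and 8.12% fell, 14.7% in all, or 1313 and 1618 genes; after each array's median was subtracted 2839 rose and 1210 fell, and the counts of the 9 genes stayed at 2 and 2. The median log2 fold change, late-onset minus early-onset, was 0.11 over the 9 genes and -0.01 over all genes. Both tumours lay above both pools in 2 of the 9 genes, against 28.5% of all genes, and below both pools in another 2, against 30.4%. The groups therefore did not overlap in 4 of the 9, against 58.9% of all genes.

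**Figure D1:**
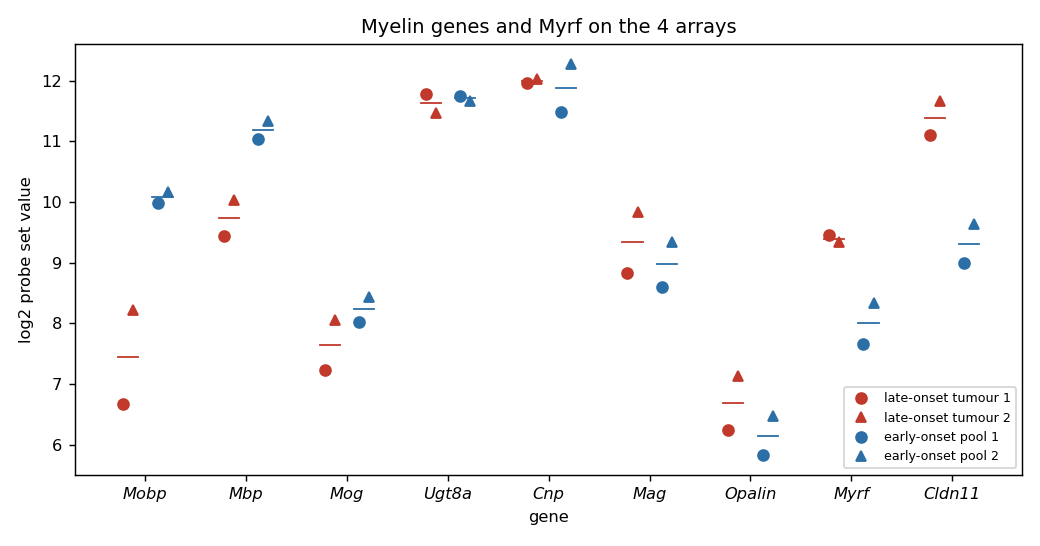
Log2 probe set value (vertical axis) of the 9 genes on each of the 4 arrays, with late-onset tumours in red left of early-onset pools in blue; circles are replicate 1, triangles replicate 2 and short lines the group means. Mobp and Mbp lie lower in both tumours than in both pools, Myrf and Cldn11 lie higher in both, and the groups overlap in the other 5 genes.

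Transcripts of the basic proteins of compact myelin were lower in late-onset cells. Mbp, which encodes the myelin basic protein that holds the cytoplasmic faces of the membrane together, stood at 9.43 in tumour 1 and 10.03 in tumour 2, against 11.04 in pool 1 and 11.33 in pool 2. Both tumours lay below both pools. The log2 fold change was -1.45 (SE 0.23, adjusted p 0.0164 by limma), a 2.73-fold lower value in late-onset cells. Mobp, which encodes the myelin-associated oligodendrocyte basic protein of the same cytoplasmic face, stood at 6.68 in tumour 1 and 8.23 in tumour 2, against 9.98 in pool 1 and 10.17 in pool 2. Its tumours lay below its pools too, and they differed from each other by 1.55 on the log2 scale, whereas the pools differed by 0.18. Each pool mixes cells of 2 tumours, so these gaps are between unlike units. The log2 fold change was -2.62 (SE 0.49, adjusted p 0.0269 by limma). It was -1.85 without tumour 1 and -3.40 without tumour 2. The Mbp call was lost without pool 1 (adjusted p 0.061) or pool 2 (0.0983), as was the Mobp call (0.108 and 0.137), and the Mobp call was also lost with robust eBayes (0.0504). In each of these fits both fold changes stayed negative, and a lone pool is assumed to vary like the tumours.

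The tight junction gene and the transcription factor were higher in late-onset cells. Cldn11, which encodes the claudin that seals neighbouring layers of the sheath, stood at 11.11 in tumour 1 and 11.66 in tumour 2, against 9.002 in pool 1 and 9.63 in pool 2. Both tumours lay above both pools, and the tumours differed from each other by 0.55 and the pools by 0.63. The log2 fold change was 2.07 (SE 0.27, adjusted p 0.0112 by limma), a 4.19-fold higher value in late-onset cells. Cldn11 was called in all 14 alternative settings, with a log2 fold change from 1.75 to 2.38. Myrf stood at 9.46 in tumour 1 and 9.33 in tumour 2, against 7.66 in pool 1 and 8.34 in pool 2. The tumours were close to each other and above both pools. The log2 fold change was 1.39 (SE 0.23, adjusted p 0.0203 by limma), or 2.63-fold higher in late-onset cells. The Myrf call was lost without tumour 1 (log2 fold change 1.33, adjusted p 0.0541) and kept in the other 13 settings, where the log2 fold change ran from 1.05 to 1.73.

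**Figure D2:**
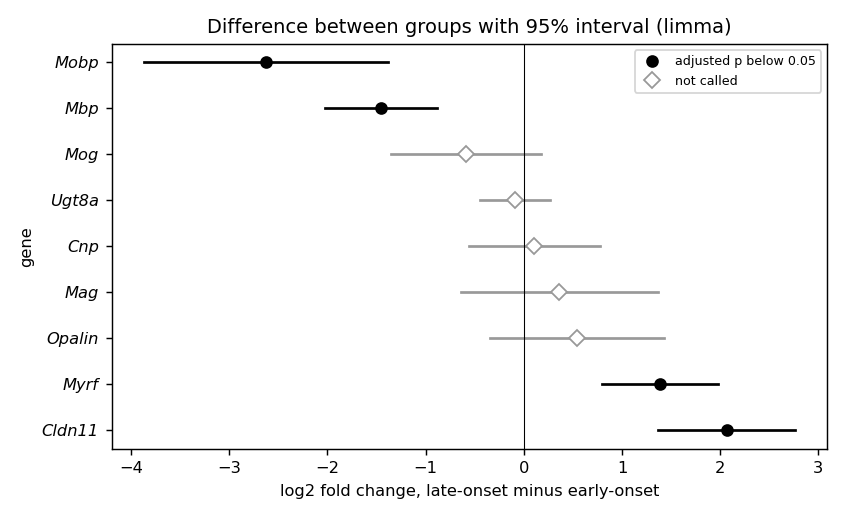
Log2 fold change of each gene, late-onset minus early-onset (horizontal axis), with its 95% interval from limma; filled circles have an adjusted p under 0.05 and open diamonds do not. The intervals of Mobp and Mbp lie below 0, those of Myrf and Cldn11 above 0, and the other 5 span 0.

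The other 5 genes did not pass the test. Mog encodes a glycoprotein of the outermost surface of the sheath. It stood at 7.23 in tumour 1 and 8.06 in tumour 2, against 8.03 in pool 1 and 8.44 in pool 2, with tumour 2 between the pools. Its log2 fold change was -0.59 (95% interval -1.35 to 0.17, adjusted p 0.266 by limma), and without tumour 2 it was -1.01 and passed (adjusted p 0.0475). Mag, an adhesion receptor of the membrane next to the axon, stood at 8.83 in tumour 1 and 9.84 in tumour 2, against 8.61 in pool 1 and 9.34 in pool 2. Its log2 fold change of 0.36 had an interval of -0.64 to 1.37, and the sign turned without tumour 2 (-0.15) and without pool 1, where it was close to 0. Opalin, a transmembrane protein of oligodendrocytes, stood at 6.24 in tumour 1 and 7.13 in tumour 2, against 5.83 in pool 1 and 6.47 in pool 2. Its log2 fold change was 0.54 (interval -0.35 to 1.42). The groups overlapped in Mag and in Opalin, and Opalin was the dimmest of the 9 genes, at percentile 38.1 of all genes by mean value.

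Cnp and Ugt8a, bright on all 4 arrays, were not called. Cnp, which encodes the cyclic nucleotide phosphodiesterase of non-compact myelin, stood at 11.96 in tumour 1 and 12.02 in tumour 2, against 11.48 in pool 1 and 12.28 in pool 2, so that both tumours lay between the pools. Its log2 fold change was 0.11 (interval -0.56 to 0.77), and it turned negative without pool 1 (-0.29) and, close to 0, after cyclic loess scaling. Ugt8a, which encodes the enzyme that makes galactosylceramide, the main glycolipid of myelin, stood at 11.79 in tumour 1 and 11.46 in tumour 2, against 11.75 in pool 1 and 11.67 in pool 2, and here both pools lay between the tumours. Its log2 fold change was -0.09 (interval -0.44 to 0.27), the narrowest interval of the 9, and it was 0.08 without tumour 2 and 0.07 after each array's median was subtracted. A change in Ugt8a of more than 0.44 on the log2 scale thus lies outside the interval, whereas the interval of Mag still holds a change of 1.37.

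Pairs of a gene that rose and a gene that fell were also set against each other within each array. The pairs were formed from the 4 called genes, so their separation follows from that choice, and the values are a description with no test. Cldn11 minus Mbp, the log2 ratio of the pair on one array, was 1.67 in tumour 1 and 1.63 in tumour 2, against -2.04 in pool 1 and -1.70 in pool 2. The shift of 3.52 between groups compares with gaps of 0.05 between the tumours and 0.34 between the pools. Myrf minus Mbp was 0.02 in tumour 1 and -0.70 in tumour 2, against -3.38 in pool 1 and -2.98 in pool 2, a shift of 2.84 beside gaps of 0.72 between the tumours and 0.40 between the pools. Cldn11 minus Mobp shifted by 4.69, with gaps of 1.00 between the tumours and 0.45 between the pools. Myrf minus Mobp shifted by 4.02, with gaps of 1.68 and 0.50, so that the tumours differed most in the ratios to Mobp. A ratio between probe sets shows unequal change, not which gene has more transcript.

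Replicates of one group also differed together. Tumour 2 lay above tumour 1 in 7 of the 9 genes, all but Myrf and Ugt8a, with a median gap of 0.60, against 50.5% of all genes and a median gap of 0.00. Pool 2 lay above pool 1 in 8 of the 9, all but Ugt8a, with a median gap of 0.63, against 53.5% of all genes and a median gap of 0.02. In the other genes of mature oligodendrocytes, tumour 2 was higher in 15 of 23 and pool 2 in 15 of 23, with median gaps of 0.23 and 0.15. In the genes of newly formed oligodendrocytes, tumour 2 was higher in 8 of 14 and pool 2 in 12 of 14, with median gaps of 0.03 and 0.31. In the astrocyte markers, tumour 2 was higher in 8 of 10 and pool 2 in 10 of 10. In the progenitor markers, tumour 2 was higher in 3 of 16 and pool 2 in 11 of 16. In the microglia markers, tumour 2 was higher in 10 of 12 and pool 2 in 1 of 12, and in the endothelial and mural markers tumour 2 in 9 of 10 and pool 2 in 1 of 10. The part of other cells in these gaps was not tested.

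**Figure D3:**
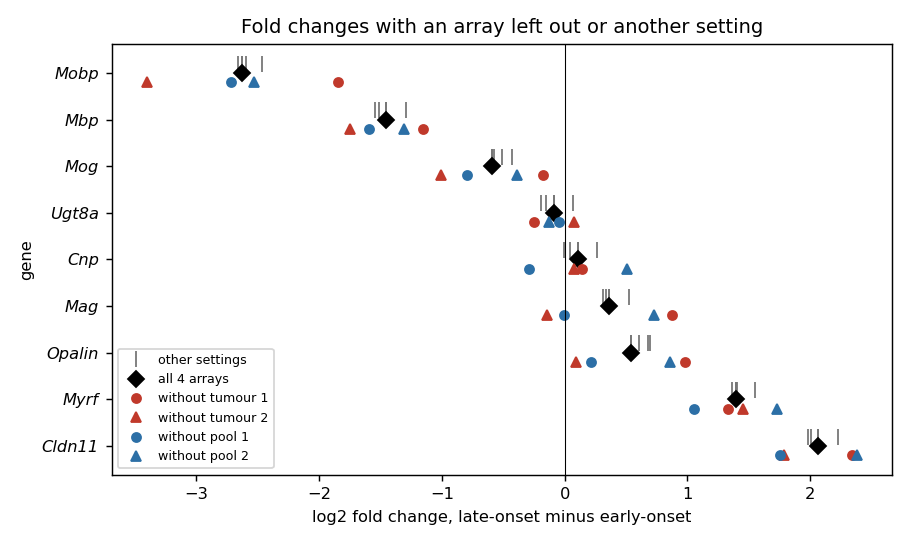
Log2 fold change, late-onset minus early-onset (horizontal axis), of the 9 genes with all 4 arrays (diamonds), with each array left out in turn (coloured markers) and under the other 10 settings (grey ticks). Mobp and Mbp stay below 0 and Myrf and Cldn11 above 0 in every one of these fits, while Ugt8a, Cnp and Mag cross 0 in some.

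Promoter windows show where letters bound by Myrf and by its partners occur beside the genes that moved and those that did not. RefSeq windows of 300 bases on GRCm38.p6, from 250 bases before the transcript start to 50 after it, were used for 7 of the 9 genes; Mbp and Myrf are not shown. The letters searched on both strands were CTGGCAC and CTGGTAC for Myrf, ACAAAG and ACAATG for Sox factors, and CAGCTG and CATCTG for E-boxes of the Olig family; capitals mark every match, and matches do not overlap each other in the windows shown. The first pair below is from the gene that fell and the gene that rose, and the second from a pair of genes that were not called but hold both Myrf and Sox letters.
Mobp, chr9:120149492-120149791, plus strand: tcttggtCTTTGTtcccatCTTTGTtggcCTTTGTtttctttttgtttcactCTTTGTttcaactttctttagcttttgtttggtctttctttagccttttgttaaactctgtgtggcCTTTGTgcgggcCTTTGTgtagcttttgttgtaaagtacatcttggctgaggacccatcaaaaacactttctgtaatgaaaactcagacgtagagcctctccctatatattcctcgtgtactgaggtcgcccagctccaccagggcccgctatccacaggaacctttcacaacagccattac
Cldn11, chr3:31149670-31149969, plus strand: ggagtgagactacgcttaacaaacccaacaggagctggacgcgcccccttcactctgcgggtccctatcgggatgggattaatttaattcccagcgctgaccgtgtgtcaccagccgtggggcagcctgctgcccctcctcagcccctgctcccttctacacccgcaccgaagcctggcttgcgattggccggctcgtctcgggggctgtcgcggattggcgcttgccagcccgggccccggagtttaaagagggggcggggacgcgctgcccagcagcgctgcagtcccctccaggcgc
Mag, chr7:30914814-30915113, minus strand: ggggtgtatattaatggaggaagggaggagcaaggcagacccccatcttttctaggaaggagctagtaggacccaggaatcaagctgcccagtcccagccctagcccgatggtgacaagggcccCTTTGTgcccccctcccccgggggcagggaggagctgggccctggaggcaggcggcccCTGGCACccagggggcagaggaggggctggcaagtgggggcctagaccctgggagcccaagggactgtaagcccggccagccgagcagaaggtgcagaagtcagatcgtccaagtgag
Cnp, chr11:100574689-100574988, plus strand: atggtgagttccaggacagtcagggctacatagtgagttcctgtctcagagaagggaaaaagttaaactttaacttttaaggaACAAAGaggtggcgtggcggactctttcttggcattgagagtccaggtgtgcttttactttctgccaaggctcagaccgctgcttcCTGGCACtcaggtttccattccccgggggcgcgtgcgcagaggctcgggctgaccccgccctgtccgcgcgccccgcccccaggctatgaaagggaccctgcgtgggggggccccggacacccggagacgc

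The Mobp window held 6 matches to the Sox letters, each as CTTTGT, the reverse complement of ACAAAG, and none to the Myrf letters. The Cldn11 window held no match to any of the letters searched. Mag and Cnp each held 1 Myrf match, CTGGCAC, and 1 Sox match. Mag has 3 windows in the table, and that match lies in the 2 that overlap each other. Mog held 1 Myrf match, and Opalin held 1 Myrf, 2 Sox and 2 E-box matches. The Ugt8a window held none. Myrf letters were thus present for Mag, Cnp, Mog and Opalin, 4 of the 7 genes, and for 7.1% of all 32851 windows. The 4 of 7 counts genes, while the 7.1% counts windows. These 4 genes were not called between groups, but Mobp and Cldn11 were the only called genes with a window used. Sox letters were in 28.6% and E-box letters in 30.6% of all windows. These are matches of letters in one window, not sites of binding.

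Other genes of mature oligodendrocytes moved both ways too. The counts of this list and of those below stand beside 6.59% of all genes that rose and 8.12% that fell. Of 23 measured, 3 rose, 5 fell and 15 were not called, at a median log2 fold change of -0.35, against -0.01 over all genes; 5 listed genes are not analysed here. Car2, a carbonic anhydrase of oligodendrocytes, stood at 6.18 and 7.50 in the tumours, against 8.62 and 9.11 in the pools (log2 fold change -2.02, adjusted p 0.0407 by limma). Gpr37, an orphan receptor of myelinating cells, fell by 1.36, and Cntn2, an adhesion protein of the region beside the node, by 1.00. Aspa, which cleaves N-acetylaspartate to supply acetate for lipids, fell by 0.97. Adamts4, a proteoglycan-cutting protease, rose by 1.03, and Anln, an actin-binding protein of cytokinesis and of myelin septin scaffolds, rose by 0.96. The remaining calls, named after their values were seen, were the node-associated link protein gene Hapln2 (-0.49) and the connexin gene Gjb1 (0.64). Ermn and Mal, also named after their values were seen and both genes of compacting sheaths, stood at -1.41 (adjusted p 0.0526 by limma) and -1.38 (0.0887). Gpr37 and Aspa, a dim gene, were called with any one sample left out, while the other 6 calls were each lost without 1 or both pools, and that of Hapln2 also without tumour 1 (adjusted p 0.0563 to 0.216). The Hapln2 call was lost as well with an intensity trend in eBayes (0.058), quantile (0.125) or cyclic loess scaling (0.0769), median subtraction (0.0969) and the lowest probe set of each gene (0.05002), and that of Car2 with robust eBayes (0.0599). The list then had 0 genes risen and 2 fallen without pool 1, 0 and 3 without pool 2, 5 and 5 without tumour 1, and 3 and 9 without tumour 2.

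Among genes of newly formed oligodendrocytes, the stage at which Myrf comes on, 4 of 14 measured fell and 1 rose. Their median was 0.07. Of all genes 8.12% fell and 6.59% rose, so the 1 rise of 14 is near the share of all genes. Tmem163, a zinc transporter, stood at 8.43 and 8.58 in the tumours, against 10.00 and 10.31 in the pools, and its log2 fold change was -1.65 (adjusted p 0.0042 by limma). Mycl, of the Myc family, fell by 0.94, the small GTPase gene Rap2a by 0.79 and the calcium release channel gene Itpr2 by 0.52, and the kinesin gene Kif19a rose by 0.65. Bcas1 and Enpp6, named after their values were seen as markers of this stage, stood at 0.25 (adjusted p 0.347 by limma) and 0.75 (adjusted p 0.57 by limma). Enpp6 was at 7.35 and 8.51 in the tumours and at 6.14 and 8.23 in the pools, the wider gap being between the pools. The Tmem163 call held with any one sample left out. Those of Rap2a (without either pool), Mycl (without pool 2 or either tumour), Kif19a (without either pool or tumour 2) and Itpr2 (without any one sample) were lost, at an adjusted p of 0.0585 to 0.244. The list then had 0 genes risen and 2 fallen without pool 1, 0 and 1 without pool 2, and 0 and 2 without tumour 2.

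Among factors that promote maturation, a pair of hormone and retinoid receptor genes fell and most others were not called. Of 19 measured, 2 rose and 4 fell, at a median of -0.04. Thra, the thyroid hormone receptor alpha gene, stood at 10.57 and 10.62 in the tumours, against 11.39 and 11.82 in the pools (log2 fold change -1.01, adjusted p 0.018 by limma). The retinoid receptor gene Rxrg fell by 0.96, Sox8, a close relative of Sox10, by 0.87, and the zinc finger gene Myt1 by 0.61. The histone deacetylase genes Hdac1 and Hdac2 rose by 0.58 and 0.55. Sox10 itself stood at 0.00 (95% interval -0.24 to 0.24, adjusted p 0.997). Each of the 6 calls was lost without pool 2, and all but that of Thra without pool 1, and those of Sox8, Myt1 and Hdac2 also without tumour 2 and that of Hdac2 without tumour 1 (adjusted p 0.0566 to 0.197). The list then had 0 genes risen and 1 fallen without pool 1, 0 and 0 without pool 2, 1 and 4 without tumour 1, 1 and 2 without tumour 2, and 3 and 2 after each array's median was subtracted.

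Inhibitors of maturation included a direct partner of Myrf. Of 14 measured, 2 rose and 1 fell, at a median of 0.09. Tmem98, a membrane protein that binds Myrf and blocks its self-cleavage, stood at 8.80 and 9.07 in the tumours, against 8.29 and 8.42 in the pools. Both tumours lay above both pools, and the log2 fold change was 0.58 (adjusted p 0.0453 by limma). The call was lost without tumour 2 (0.111) and without either pool. Sox11, a factor of immature cells, rose by 0.75, and Sox5 fell by 0.99. Id2, Id4 and Hes5, which hold progenitors undifferentiated, were named after their values were seen and were not called, at -0.06, -0.69 and 0.16. The Sox11 call was lost without pool 2 or either tumour and the Sox5 call without pool 2 (adjusted p 0.0533 to 0.21 with Tmem98). The list then had 1 gene risen and 2 fallen without pool 1, 1 and 0 without pool 2, and 0 and 1 without tumour 2.

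Markers of the progenitor stage fell or were not called. Of 16 measured, 0 rose and 7 fell, at a median of -0.56, against 6.59% and 8.12% of all genes. Gpr17 is also counted among newly formed genes, and Ptprz1 and Sox6 among inhibitors. Among the 7 was Pdgfra, named after its values were seen (-0.45, adjusted p 0.041 by limma). Its call was lost with quantile scaling (0.0728), median subtraction (0.106) and a block for the replicate number (0.0863). With a sample left out its log2 fold change ran from -0.49 to -0.40. Tmem100 stood at 10.41 and 10.54 in the tumours, against 11.76 and 11.89 in the pools (log2 fold change -1.35, adjusted p 0.00372 by limma), and Emid1, Rlbp1, C1ql1, Cspg5 and Cacng4 fell by 1.07, 0.85, 0.84, 0.74 and 0.66. Tmem100 was called with any one sample left out, and it was the 1 gene of the 16 that still fell without pool 1 or without pool 2, while 11 fell with an intensity trend in eBayes.

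**Figure D4:**
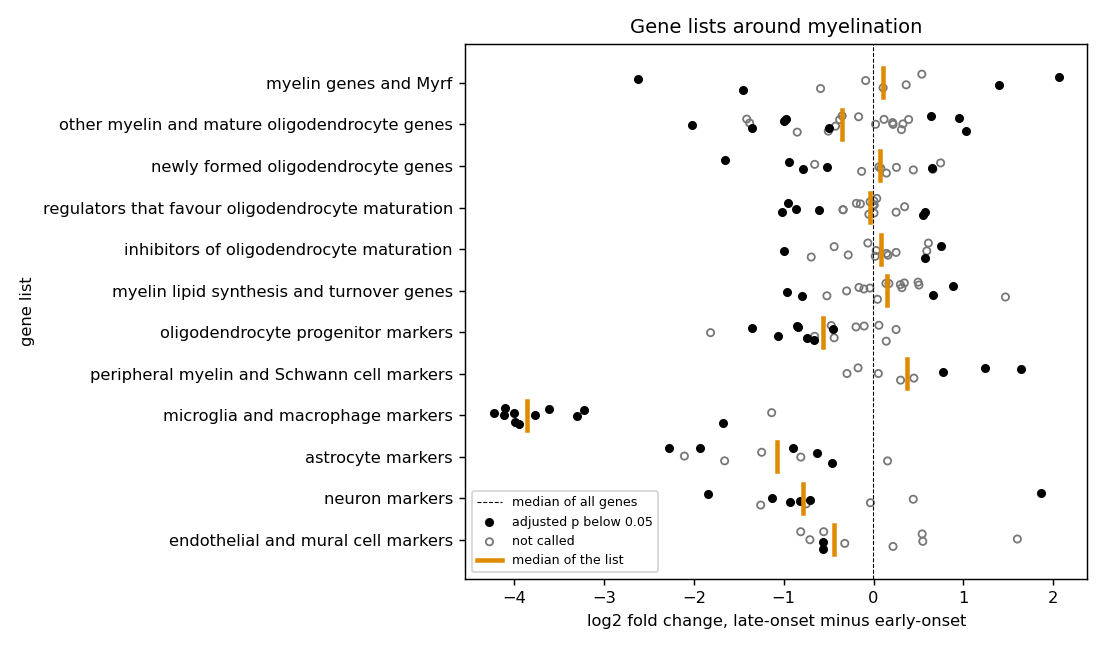
Log2 fold change, late-onset minus early-onset (horizontal axis), of every measured gene of 12 lists, with filled points at an adjusted p under 0.05, orange bars at list medians and a dashed line at the median of all genes. The 9 myelin genes run from -2.62 to 2.07, while 11 of 12 microglia and macrophage markers fell.

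Markers of other cells moved beside the myelin genes. Of 12 microglia and macrophage markers, 11 fell and 0 rose, and the log2 of their summed value was 10.62 and 11.23 in the tumours, against 14.78 and 14.61 in the pools. Of 10 astrocyte markers, 5 fell and 0 rose, with a log2 summed value of 12.66 and 12.79 in the tumours and 13.50 and 13.78 in the pools. Of 10 neuron markers, 5 fell and 1 rose, with a log2 summed value of 12.97 and 12.62 in the tumours and 12.72 and 12.71 in the pools. The neuron gene that rose was the tubulin gene Tubb3 (1.86). Of 10 endothelial and mural markers, 2 fell, Rgs5 and Vtn, and 0 rose, and their log2 summed value was 9.55 and 11.24 in the tumours and 10.32 and 9.76 in the pools. None of these markers is at 0, since array values have no zero. Each sum is carried by its brightest markers, so it is not a measure of cell number. The brightest neuron marker, Map2, stood at 12.25 and 11.63 in the tumours and 11.998 and 11.95 in the pools, and was not called. Acta2, an endothelial and mural marker, stood at 10.31 in tumour 2, against 7.43 in tumour 1 and 7.42 and 7.12 in the pools. Rgs5 was dim, at 4.78 and 4.91 in the tumours and 5.48 and 5.33 in the pools. The part of these cell types in the falls of Mbp and Mobp or in the rises of Cldn11 and Myrf was not tested. The fallen counts of microglia, astrocyte and neuron markers were 11, 3 and 1 without pool 1, and 11, 2 and 0 without pool 2, and those of astrocyte and neuron markers were 3 and 3 without tumour 1. The calls of Rgs5 and Vtn were both lost with any one sample left out (adjusted p 0.0533 to 0.188) and with median subtraction (0.066 and 0.062).

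The genes with the profile most like that of Myrf over the 4 arrays were, by distance between mean-centred log2 values and among genes above the median value, Plk1 (distance 0.14), Kif18b (0.15), Glce (0.15), Kif20a (0.19) and Cenpe (0.20). Plk1 is a mitotic kinase, Kif18b, Kif20a and Cenpe are kinesins of the mitotic spindle, and Glce is an enzyme of heparan sulfate. Plk1 stood at 10.86 and 10.92 in the tumours and at 9.23 and 9.86 in the pools. These 5 genes were picked by their distance to the values of Myrf. Their likeness to it in the rise and in the low value of pool 1 follows from that choice. The genes closest to the mean profile of the 9 myelin genes were Dph7, Serinc2, Nab2, Rras2 and Smim20, at distances of 0.12 to 0.17. Rises and falls of the 9 genes largely cancel in that mean, so its nearest genes differ little between groups. None of these 5 was called.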

How the data were processed

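Affymetrix whole-transcript mouse arrays were deposited as 1 log2 value per probe set. Per the submitters' processing notes, RMA and affy version 3.4.2 were used by the authors, with parameters not given in the sources used here. RMA equalises the distribution of values between arrays, which hides changes common to most genes, and background compresses the fold changes of dim genes. Precision is limited by having 2 arrays per group. The fit gives both groups a common variance for each gene, although a pool mixes 2 tumours and a late-onset sample does not.

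Of 34760 probe sets, 21640 had a single gene symbol in the platform annotation, 1321 several and 11799 none; the last 2 kinds were left out. By Entrez identifier 21553 matched the GRCm38.p6 RefSeq table and 0 symbols changed. Each gene kept its probe set with the highest mean, which gave 19937 genes.

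Late-onset minus early-onset was fitted by lmFit and eBayes (limma 3.58.1, R 4.3.3, 2 residual and 3.27 prior degrees of freedom), without further scaling or filtering. The threshold was an adjusted p of 0.05 over all genes, and intervals cover 95%. The 9 members and the 11 other gene lists were chosen with earlier results of these data known. The naming rule took all members, up to 6 called genes per list by size (2 by moderated t where none was called), and the 5 genes with the nearest profile to Myrf and to the members' mean. Genes outside it are said to be named after their values were seen. In 5 simulated sets of 19937 genes with 200 changed, the late against early fit recovered 48.6% of log2 changes of 1 and 96.5% of log2 changes of 2. Of its calls, 6.18% and 5.02% were false. Recovery depends on the share of genes that change, and 2931 genes were called in these data, so these rates need not hold here. Alternatives covered the variance model, scaling, dim genes, probe set choice, weights per array, a block for the replicate number, and leaving out each sample.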

Additional observations from a re-analysis of the deposited data

How the results depend on the processing

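Directions of the 4 called genes held in all 14 alternatives. With each sample left out in turn, the genes called ran from 850 to 2577 of all genes (2931 with all arrays), from 21 to 59 of the list genes (60), from 1 to 2 of the myelin genes higher and from 0 to 3 lower; the 0 and the lowest counts over all genes and list genes came without a pool, the 3 without tumour 2, where Mog passed, and the 1 without tumour 1, where Myrf did not. Over the same fits the log2 fold change ran from -1.75 to -1.15 for Mbp, -3.40 to -1.85 for Mobp, 1.05 to 1.73 for Myrf, -1.01 to -0.17 for Mog, -0.15 to 0.87 for Mag, 0.0934 to 0.98 for Opalin, -0.29 to 0.51 for Cnp and -0.25 to 0.0759 for Ugt8a. With robust eBayes, 1 myelin gene was lower, since Mobp (-2.62) no longer passed. Cyclic loess turned Cnp to -0.0029, and subtracting each array's median turned Ugt8a to 0.0716; the cause was not tested. That subtraction moved the median of all genes from -0.01 to 0.15 and gave 2839 genes higher and 1210 lower, against 1313 and 1618. Relative to that median Ugt8a stays below 0.

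With the replicate number as a block, 1833 genes were called. The numbers only name samples: across genes, the difference between replicates 1 and 2 correlated at -0.04 between groups. All 4 called myelin genes passed with the block. The factors that promote maturation then had 0 rises and 2 falls, the inhibitors 0 rises and the endothelial and mural markers 0 falls, and Hapln2 was not called (adjusted p 0.0953). Of 726 values of 52 other named genes, 127 lost their call, 98 of them with a sample left out, and 0 turned sign.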

Other observations

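Genes of peripheral myelin, made by Schwann cells and not by oligodendrocytes, were followed as a separate list. Of 8 measured, 3 rose and 0 fell in late-onset cells, at a median log2 fold change of 0.37, and 2 listed genes are not analysed here. Cdh19, a cadherin of Schwann cell precursors, stood at 10.22 and 9.91 in the tumours, against 8.94 and 7.91 in the pools (log2 fold change 1.64, adjusted p 0.0369 by limma). Egr2, the factor that drives peripheral myelin genes and is also induced by growth factors, rose by 1.24. Pmp22, a membrane protein of peripheral myelin also made by other cells, rose by 0.78. Pmp2 and Ncmap, a lipid carrier and a membrane protein of peripheral myelin, were named after their values were seen and stood at 0.45 (adjusted p 0.111) and 0.05 (adjusted p 0.778). The Cdh19 call was lost without tumour 1 (0.0949), tumour 2 (0.0704) or pool 2 (0.0582) and with robust eBayes (0.0505), and kept without pool 1. The list had 1 risen gene without pool 1, 0 without pool 2 and 2 without tumour 1.

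Genes of myelin lipid synthesis and turnover gave 2 rises and 2 falls among 18 measured, at a median of 0.15. The sterol genes Hsd17b7 and Cyp51 rose by 0.88 and 0.67, and Sgms1, a sphingomyelin synthase, and Psap, the precursor of lysosomal sphingolipid activators, fell by 0.96 and 0.79. Fa2h and Gal3st1, also genes of galactolipid synthesis, were named after their values were seen. They stood at -0.52 (adjusted p 0.0625 by limma) and -0.04 (adjusted p 0.859 by limma). The list had 0 rises and 0 falls without pool 1, 1 and 0 without pool 2, 4 and 2 without tumour 1, 2 and 1 without tumour 2, and 7 rises after each array's median was subtracted.

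The 9 myelin genes lie on 7 chromosomes by the RefSeq table, with Cldn11 and Ugt8a on chromosome 3 and Myrf and Opalin on chromosome 19. Among brighter genes, the median log2 fold change was 0.08 on chromosome 3 and 0.05 on chromosome 19. Of the 10 measured genes flanking Cldn11, 5 on each side, 0 rose and 2 fell. Of the 10 flanking Myrf in the same way, 1 rose and 0 fell.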
